A study of Mus musculus with 20 samples.

Results

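The genes examined are those through which cells show peptides to T cells: the class II chains H2-Aa, H2-Ab1 and H2-Eb1 with their chaperone Cd74, the class I heavy chains H2-K1 and H2-D1 with their partner B2m, and the peptide suppliers Tap1, Psmb8 and Psmb9. The members were taken by gene symbol: every probe set whose platform annotation gives a single symbol, that of a member, was used. The 10 genes were measured by 15 probe sets, out of 8251 genes with a single symbol on the array, and all 15 were bright enough to be tested. A probe set is the group of short probes whose combined signal gives 1 intensity.

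Hearts of 20 male mice were profiled, 1 array per animal. The 4 groups of 5 animals were young controls of 5 months, old controls of 30 months, 30-month-old animals fed alpha-tocopherol at 1000 mg/kg, and 30-month-old animals fed a mixture with 500 mg/kg each of alpha- and gamma-tocopherol. The labels put the start of the supplements at 15 months and the controls on a control diet. Tocopherols are forms of vitamin E. All mice were bought as B6C3F1 hybrids, housed singly and kept free of pathogens. The strain label of old controls 1 and 4 reads B6/C3H hybrid without the F1 that the other 18 animals carry. The parental strains have different H2 haplotypes, and which allele a probe reads best was not tested. The comparisons ask what age does to these transcripts and what the supplements do in old animals.

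Class I molecules sit on nearly all nucleated cells. They carry peptides that the proteasome cuts in the cytosol and that the Tap1-Tap2 pump moves into the endoplasmic reticulum, where heavy chain, B2m and peptide assemble. Class II molecules are carried mainly by dendritic cells, macrophages and B cells: an alpha and a beta chain are held by Cd74, the invariant chain, until lysosomal proteases cut it away and H2-DM loads a peptide. Interferon gamma raises both arms, and it brings in the inducible proteasome subunits Psmb8 and Psmb9 in place of Psmb5 and Psmb6. In heart muscle most class II transcript is known to come from resident immune cells, and class I transcript also from endothelium.

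Promoter sequences were printed for B2m and H2-D1, the annotated genes of the 2 class I probe sets called with age. Those of 2 class II chains and the Tap1-Psmb9 pair were added, as the regions through which these genes are switched on together. They come from the RefSeq annotation of GRCm38.p6, the reference mouse assembly, and are not sequences of these hybrid animals. H2-D1 lies at chr17:35262894-35263093 (plus strand), B2m at chr2:122147487-122147686 (plus), H2-Aa at chr17:34287824-34287973 (minus) and H2-Eb1 at chr17:34305717-34305866 (plus), each stretch ending at the base before the annotated start. Tap1 and Psmb9 are read in opposite directions from starts 225 bases apart, and the whole gap, chr17:34187331-34187555, is shown on the Tap1 strand. Capitals mark the matched motifs, on either strand.
H2-D1: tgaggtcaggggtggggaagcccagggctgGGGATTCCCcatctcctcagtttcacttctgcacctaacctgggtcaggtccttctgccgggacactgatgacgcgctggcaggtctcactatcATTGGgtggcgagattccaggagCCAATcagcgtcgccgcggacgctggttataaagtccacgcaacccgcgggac
B2m: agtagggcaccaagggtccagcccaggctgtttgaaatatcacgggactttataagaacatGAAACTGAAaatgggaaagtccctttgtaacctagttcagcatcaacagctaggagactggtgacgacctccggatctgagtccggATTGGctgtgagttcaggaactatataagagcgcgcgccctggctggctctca
H2-Aa: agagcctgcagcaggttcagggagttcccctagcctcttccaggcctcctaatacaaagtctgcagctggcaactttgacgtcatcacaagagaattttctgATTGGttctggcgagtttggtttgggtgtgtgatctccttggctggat
H2-Eb1: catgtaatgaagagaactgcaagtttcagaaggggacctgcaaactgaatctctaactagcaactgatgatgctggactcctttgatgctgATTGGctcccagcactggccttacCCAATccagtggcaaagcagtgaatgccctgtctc
Tap1-Psmb9: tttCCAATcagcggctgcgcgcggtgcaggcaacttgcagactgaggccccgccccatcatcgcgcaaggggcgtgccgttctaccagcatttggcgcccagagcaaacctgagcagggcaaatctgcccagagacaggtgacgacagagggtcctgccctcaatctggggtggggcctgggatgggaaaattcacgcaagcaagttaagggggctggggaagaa

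Both strands of the 250 bases before the start were searched for short motifs in the 8 members with a window in that table. CCAAT, the box bound by the NF-Y factor that class II promoters share, was found in 7 of the 8, against 33.8% of 32817 promoters of the same length. The match of Tap1 and that of Psmb9 are the same box, in the gap between their starts. With the likeness of H2-K1 and H2-D1 given below, the 7 are not independent matches. GGGANTCCC, the NF-kappa-B type element of class I enhancers, was found in H2-K1 and H2-D1, against 0.637% of promoters. GAAANNGAA, a core of the interferon-stimulated response element, was found in B2m, against 7.12% of promoters. Only this exact string was searched, so other forms of the element were not counted in any member. TGATGCA was found in 0 of the 8 and in 2.68% of promoters, and no match overlapped another in the printed stretches. The upstream stretches of H2-K1 and H2-D1 were alike at 166 of 190 aligned bases, 87.4%. These matches describe letters in a window.

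The H2-K1 and H2-D1 messages are also alike, and 5 of their 6 probe sets carry the suffix that marks probes shared within a gene family. Their values are therefore those of class I heavy chains together, and a change cannot be given to 1 of the 2 genes.

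The deposited intensities had nearly the same trimmed mean on every array, and medians of log2 values differed by at most 0.115 between arrays. The heart label matched the markers: the summed intensity of 13 cardiomyocyte genes was 709776 to 1160158 on the 20 arrays. Young control 3 stood apart in immune transcripts. Its 14 T cell markers summed to 46758, against 3598 to 7592 on the other 19 arrays, and 11 of the 14 were highest there. Cd3e, a chain of the T cell receptor complex, read 3612.8 on that array and at most 233.2 elsewhere, and the co-receptor Cd8a 5556 against at most 129.9. Its 17 macrophage and myeloid markers summed to 55405, against 24000 to 46322 elsewhere, and its 10 endothelial markers to 26684, the lowest of the 20 (27733 to 38380 elsewhere). Young control 3 was the highest young control in 13 of the 15 member probe sets and the highest of all 20 arrays in 7. The age differences of the members are therefore given with it and without it. In those 13 probe sets, leaving out the highest young value raises the difference by construction. In whole-heart RNA, fewer cells of a type and less transcript per cell cannot be told apart.

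**Figure D1:**
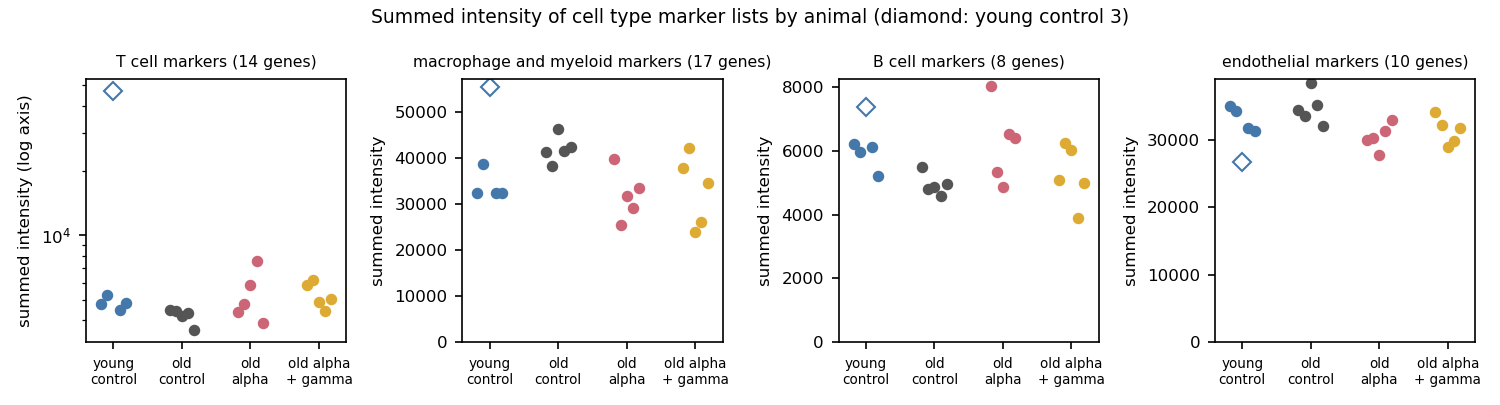
Summed intensity of the T cell (log axis), macrophage and myeloid, B cell and endothelial marker lists on each array, by group; each point is 1 animal and the open diamond is young control 3. Young control 3 lies at 46758 for T cell markers, where the other 19 arrays lie between 3598 and 7592.

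Of the class I probe sets, 2 were called higher in hearts of old controls than of young controls. B2m, the light chain that every classical class I molecule needs, was 2.12-fold higher, and 1 class I heavy-chain probe set, annotated H2-D1, was 2.28-fold higher. The other class I heavy-chain family probe sets were at 1.49 to 1.57 times the young level without passing the test, H2-K1 97700_at was at 0.94 times, and the class II chains and Cd74 were at 0.91 to 1.25 times. Of the 15 probe sets 2 rose and 0 fell, where 2.74% of the 7453 tested probe sets rose and 4.94% changed in either direction.

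B2m intensities were 7373, 9566, 25017.5, 11106 and 8079 in young controls 1 to 5 and 23967, 22050.5, 24546, 23215 and 22907 in old controls 1 to 5. The old controls lay within 1.11-fold of each other, and 4 of the 5 young animals lay far below them, while young control 3 was above all of them. On the log2(intensity + 58) scale, on which all differences are given, the means were 13.43 ± 0.70 (SD, n = 5) and 14.51 ± 0.06 (SD, n = 5). The difference was 1.08 ± 0.31 (SE; limma, Benjamini-Hochberg adjusted p = 0.041), and 1.38 ± 0.27 without young control 3 (adjusted p = 0.0034), where the groups no longer overlapped.

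The H2-D1 probe set 97541_f_at read 1009, 775.5, 2283, 1148 and 713 in young controls 1 to 5 and 2189, 1899.9, 4528, 3093 and 1809 in old controls 1 to 5. Old controls 3 and 4 were above all young animals, and the other old controls were above all young animals but young control 3. The difference was 1.19 ± 0.31 (SE, n = 5 per group; limma adjusted p = 0.024), and 1.45 ± 0.28 without young control 3 (adjusted p = 0.0039).

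Without young control 3, 5 of the 15 probe sets rose with age, where 4.92% of all tested probe sets were called in either direction. These were B2m and 4 class I heavy-chain probe sets: all 3 of H2-D1 and 1 of H2-K1, with H2-D1 101886_f_at at 0.80 ± 0.19 (SE; limma adjusted p = 0.017), 97540_f_at at 0.91 ± 0.23 (adjusted p = 0.021) and H2-K1 93120_f_at at 0.81 ± 0.19 (adjusted p = 0.017). In these 3 the old controls read 10965 to 20278, 15010 to 28462 and 16985 to 33383, and the young controls other than animal 3 read 7702 to 9208, 8569 to 11731 and 11214 to 14984. The 4 heavy-chain probe sets called all carry the family suffix, so the 5 calls are not independent of each other. Groups did not overlap in 9 of the 15 probe sets without young control 3, against 0 with it. Over all tested probe sets these shares were 10.7% and 7.02%, and 4 animals against 5 separate more easily than 5 against 5. Young control 3 was the highest young control in most members, so leaving it out favours both calls and separation among them. The counts without it are therefore not independent support for a rise.

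The B2m call was lost when any of young controls 1, 2, 4 or 5, any old control or the first animal of the mixed-tocopherol group was left out, at differences of 0.94 to 1.10 and adjusted p of 0.052 to 0.12. That of H2-D1 97541_f_at was lost without young control 1, 2 or 5 or old control 3 or 4, at 0.98 to 1.16 and adjusted p of 0.058 to 0.074. Without old controls 1 and 4, the 2 animals with the other strain label, the differences were 1.07 ± 0.37 for B2m and 1.17 ± 0.37 for H2-D1 97541_f_at, with adjusted p of 0.16 and 0.11, and 0 members were called, where 2.01% of all tested probe sets were. Old control 3 was the highest old control in 12 of the 15 probe sets. Its 3′ to 5′ signal difference of Gapdh, a sign of RNA quality, was 1.211 on the log2 scale against -0.149 to -0.108 in the other old controls. The same measure of actin was 0.228 in old control 3, within the 0.081 to 0.289 of the other old controls. The part of the Gapdh difference in the results was not tested. Without young control 3 and old control 3 together, 4 members were called, where 4.84% of all tested probe sets were.

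**Figure D2:**
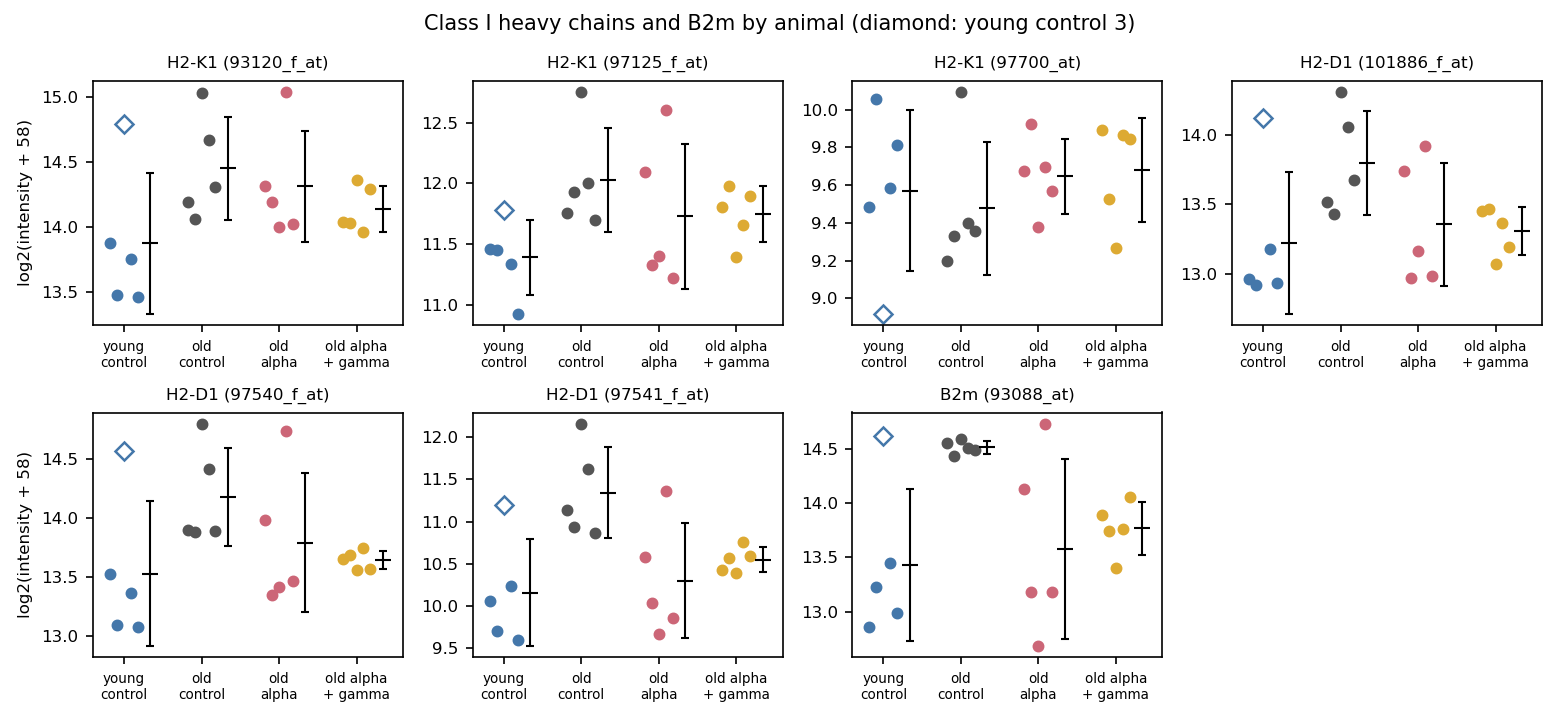
The log2(intensity + 58) of each probe set of H2-K1, H2-D1 and B2m in each animal, by group, with the group mean and SD (bars, n = 5) beside the points; the open diamond is young control 3. B2m in old controls spans 22050.5 to 24546 in intensity, above 4 of the 5 young controls, and young control 3 lies with the old controls in most panels but lowest in H2-K1 97700_at.

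The peptide suppliers gave smaller differences with age. Psmb8, the inducible subunit with chymotrypsin-like activity, read 1757, 1669, 5042, 1778 and 1574 in young controls 1 to 5 and 2329, 2000.3, 3995, 2989 and 2457 in old controls 1 to 5. All old controls were above the 4 young controls other than animal 3. The difference was 0.33 ± 0.27 (SE, n = 5 per group) with all animals and 0.64 ± 0.22 without young control 3 (limma adjusted p = 0.60 and 0.099). Tap1, one chain of the peptide pump, read 812 to 2570.1 in young and 1126 to 1822 in old controls by its brighter probe set, a difference of 0.17 ± 0.28, or 0.45 ± 0.24 without young control 3. Psmb9, which replaces Psmb6, read 608 to 2543 and 971 to 1266.5, a difference of 0.06 ± 0.38, or 0.36 ± 0.36 without young control 3. None of these genes passed the test in either setting.

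On the class II side no call was made with age. Cd74 read 7584, 5304, 30260.4, 6439 and 3985 in young controls 1 to 5 and 7521, 6691, 15283, 8229 and 7536 in old controls 1 to 5. Young control 3 and old control 3 were far above their groups, and the other animals of the groups overlapped. The difference was 0.12 ± 0.45 (SE), or 0.60 ± 0.36 without young control 3 (limma adjusted p = 0.94 and 0.41). H2-Ab1, a beta chain, read 977.5, 733.5, 5019, 1179 and 742 in the young and 1478, 1278, 2692, 1592 and 1318 in the old controls. All old controls were above the young controls other than animal 3, and the difference was 0.33 ± 0.50, or 0.81 ± 0.44 without that animal (adjusted p = 0.81 and 0.34). H2-Aa, the alpha chain that pairs with it, differed by -0.02 ± 0.66, or 0.46 ± 0.60 without it. H2-Eb1, the other beta chain, differed by -0.13 ± 0.26 and turned to 0.17 ± 0.20 without young control 3.

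**Figure D3:**
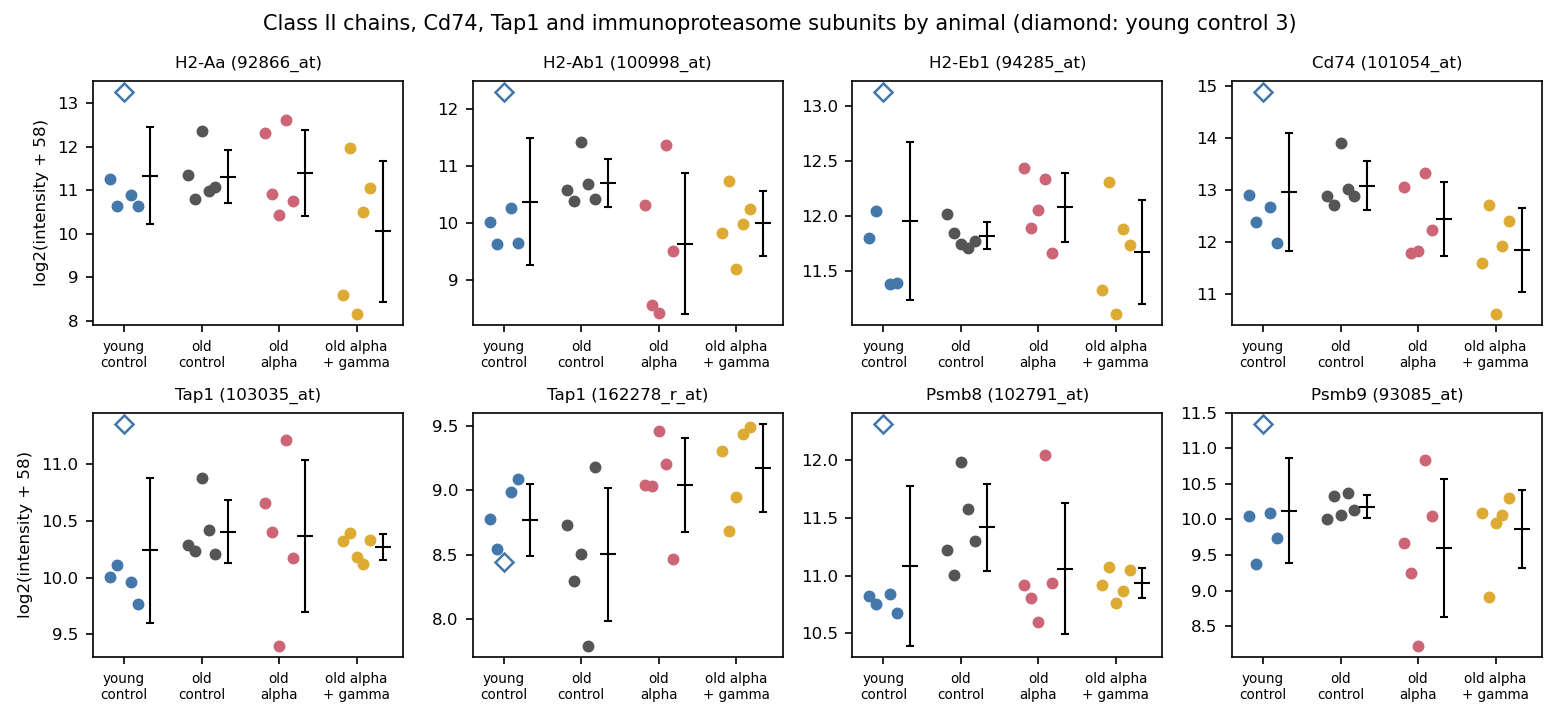
The log2(intensity + 58) of each probe set of H2-Aa, H2-Ab1, H2-Eb1, Cd74, Tap1, Psmb8 and Psmb9 in each animal, by group, with the group mean and SD (bars, n = 5); the open diamond is young control 3. Young control 3 is the highest of the 20 animals in all panels but that of Tap1 162278_r_at, and H2-Aa in the mixed-tocopherol group spans 228 to 3956 in intensity.

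Of the other pathway genes, few were called with age, where 4.94% of all tested probe sets were called. Among 7 tested genes of class I loading and peptide trimming, 0 rose and 0 fell. The list of other class I and B2m-paired genes held 7 tested genes, H2-Ke6 among them, which is not a class I chain. Of their probe sets, only that annotated H2-Q10, a class I gene known from liver, was called. Its difference was 0.60 ± 0.17 (SE; limma adjusted p = 0.039), and 0.67 ± 0.18 without young control 3. Whether its probes also read other class I heavy chains was not tested. The rise is therefore not given to H2-Q10 alone. Of 8 genes listed as class II chaperone and lysosomal genes, with the tetraspanin Cd9 counted among them, 0 were called. Of 14 regulators Rfxank, a subunit of the RFX complex at class II promoters, fell by 0.49 ± 0.14 (adjusted p = 0.037), or by 0.53 ± 0.14 without that animal, and 13 were not called. The macrophage and myeloid markers had 0 of 11 called. Their sums were 32332, 38586, 55405, 32388 and 32394 in young controls 1 to 5 and 38180 to 46322 in old controls. Young controls 1, 4 and 5 thus lay below every old control, and none of these markers was called without young control 3 either. Of 10 endothelial markers 2 rose, Pecam1 by 0.65 ± 0.14 (adjusted p = 0.0078) and Cldn5 by 0.95 ± 0.23 (adjusted p = 0.017). With that animal left out these were 0.56 ± 0.14 and 0.89 ± 0.25, and their part in the class I values was not tested.

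Old hearts given alpha-tocopherol carried less B2m and less H2-D1 97541_f_at signal than old controls, at 0.52 and 0.48 of the control level. These were the same 2 probe sets that rose with age, and the old controls are shared by both comparisons. Of the 15 members 2 fell and 0 rose. Of all tested probe sets 12.8% fell and 21.7% changed in either direction, so that the members' count is near the background of this comparison.

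B2m read 17848, 9223, 6526, 27129.5 and 9239 in alpha-tocopherol animals 1 to 5. Animals 1, 2, 3 and 5 were below all old controls, and animal 4 was above all of them. The difference was -0.93 ± 0.31 (SE, n = 5 per group; limma adjusted p = 0.033). H2-D1 97541_f_at read 1478, 992, 755, 2567 and 866, again with 4 animals below all old controls and animal 4 within their range. Its difference was -1.04 ± 0.31 (limma adjusted p = 0.018).

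The other class I family probe sets lay 0.14 to 0.44 below old controls on the log2 scale without passing the test: -0.14 ± 0.23 and -0.30 ± 0.23 for H2-K1 93120_f_at and 97125_f_at, -0.44 ± 0.22 and -0.39 ± 0.26 for H2-D1 101886_f_at and 97540_f_at. Among the peptide suppliers Psmb8 read 1874, 1732.5, 1491, 4166 and 1904, with 4 animals below all old controls and animal 4 above them, a difference of -0.36 ± 0.27 (limma adjusted p = 0.37). Psmb9 read 753, 547, 240.0, 1765 and 995, a difference of -0.58 ± 0.38 (adjusted p = 0.28), and Tap1 by its brighter probe set differed by -0.04 ± 0.28.

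None of the class II chains was called. H2-Ab1 read 1225, 321, 282.5, 2580.3 and 674, with 4 animals below all old controls, a difference of -1.06 ± 0.50 (SE; limma adjusted p = 0.13). H2-Aa read 5018, 1862, 1323, 6171 and 1660.5, a difference of 0.08 ± 0.66, and H2-Eb1 5496, 3746, 4182, 5121 and 3189.6, a difference of 0.26 ± 0.26. Cd74 read 8522, 3486, 3574, 10189 and 4777, with 3 animals below all old controls, a difference of -0.63 ± 0.45 (adjusted p = 0.33). Animals 1 and 4 were the 2 highest of this group in 11 of the 15 probe sets. The T cell marker sum of animal 4 was 7592 and of the others 3897 to 5850, and that of animal 1 was 4358.

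Without alpha-tocopherol animal 4, H2-Ab1 was called lower at -1.50 (limma adjusted p = 0.025), where 20.7% of all tested probe sets were called. The B2m call was lost without old control 1, 3, 4 or 5 or alpha-tocopherol animal 2, 3 or 5, at -0.94 to -0.71 and adjusted p of 0.056 to 0.11, and that of H2-D1 97541_f_at without old control 3 or alpha-tocopherol animal 3, at -0.84 and -0.89. Without old controls 1 and 4 the differences were -0.92 ± 0.37 and -1.02 ± 0.37, and 0 members were called, where 13.2% of all tested probe sets were. The arrays of this group also differed from the old controls in technical signals: the bacterial hybridization controls were 0.852 higher and 18S ribosomal RNA 1.655 higher on the log2 scale, each with an exact permutation p of 0.0079, the smallest that 5 against 5 arrays allow (0.032 after Benjamini-Hochberg adjustment over 16 tests). With the hybridization controls as a covariate B2m differed by -0.51 ± 0.53 and H2-D1 97541_f_at by -0.94 ± 0.54, with 18S by -1.07 ± 0.49 and -1.09 ± 0.49, and 0 members were called with either, where 1.93% and 1.91% of all tested probe sets were called. Neither technical signal overlapped between these 2 groups, so it cannot be told apart from the supplement by such a fit.

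Genes beside the members were called in both directions under alpha-tocopherol, where 21.7% of all tested probe sets were called. Of 7 genes of class I loading 2 rose: Tapbp, tapasin, by 0.53 ± 0.14 (SE; limma adjusted p = 0.0077) and Pdia3, the disulfide isomerase of the loading complex, by 1.38 ± 0.36 (adjusted p = 0.0083). Psmb5, the constitutive subunit that Psmb8 replaces, fell by 0.64 ± 0.09 (adjusted p = 7.4e-05), the only 1 of the 3 constitutive subunits called. Of the 7 genes listed as other class I and B2m-paired genes, H2-Ke6 again included, 1 fell, Hfe, the B2m-paired regulator of iron uptake, by 0.42 ± 0.15 (adjusted p = 0.047).

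Of the 8 genes listed as class II chaperone and lysosomal genes, Cd9 again included, 2 fell and 1 rose, where 21.7% of all tested probe sets were called in either direction. Ctss, cathepsin S, which trims the invariant chain, fell by 0.87 ± 0.26 (SE; limma adjusted p = 0.019), and Lgmn, the lysosomal asparaginyl endopeptidase, fell by 0.87 ± 0.13 (adjusted p = 6.7e-05). Ctsd, cathepsin D, rose by 0.56 ± 0.17 (adjusted p = 0.020). Of 14 regulators Rfxank rose by 0.75 ± 0.14 (adjusted p = 0.00055), Irf1, an interferon-induced activator, rose by 0.42 ± 0.15 (adjusted p = 0.048) and Nfyc, a chain of NF-Y, fell by 0.38 ± 0.12 (adjusted p = 0.033).

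Markers of the cells that carry class II were lower in part, where 12.8% of all tested probe sets fell and 21.7% were called. Of 11 macrophage and myeloid markers 6 fell and 0 rose, among them the complement chain C1qb by 1.16 ± 0.22 (SE; limma adjusted p = 0.00069) and the lysozyme Lyz2 by 0.90 ± 0.26 (adjusted p = 0.018), and the sums were 25396 to 39817 against 38180 to 46322 in old controls. Of 4 dendritic cell markers 2 rose and of 5 B cell markers 1 rose, with sums of 11650 to 15851 against 7860 to 11043 and 4863 to 8024 against 4593 to 5494. Fscn1 was the brightest dendritic cell marker, at a mean log2 of 12.88 against 12.25 in old controls, and weighs most in that list's sums. Of 10 endothelial markers 2 fell, Cldn5 by 0.95 ± 0.23 (adjusted p = 0.0059) and Cdh5 by 0.52 ± 0.14 (adjusted p = 0.0086). Of 11 fibroblast markers 7 fell and 1 rose, and of 13 cardiomyocyte markers 5 rose. The part of these markers in the member values was not tested.

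In old hearts given the mixture, 13 of the 15 probe sets lay below the old controls, and 0 passed the test, where 6.43% of all tested probe sets were called. The median difference of the 15 was -0.482, against -0.009 over all tested probe sets. At an unadjusted p under 0.05 there were 5 members, 4 lower and Tap1 162278_r_at higher, against 1710 of the 7453. Groups did not overlap in 4 of the 15 probe sets, Cd74, B2m and H2-D1 97540_f_at and 97541_f_at, and in 8.32% of all tested probe sets.

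Among the 4 probe sets without overlap, Cd74 had the largest difference. It read 3064, 6617.5, 1514, 3852 and 5349 in animals 1 to 5 of the mixed group, all below the lowest old control. The difference was -1.23 ± 0.45 (SE, n = 5 per group), 0.43 of the control level (limma adjusted p = 0.11), and with young control 3 left out of the shared spread -1.23 ± 0.34 (adjusted p = 0.031), the 1 member called in that setting, where 7.46% of all tested probe sets were called.

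B2m read 15171, 13616, 10742, 13809 and 17007, all below the old controls, and animals 1, 2, 4 and 5 were above every young control but animal 3. The difference was -0.74 ± 0.31 (SE; limma adjusted p = 0.15). H2-D1 97541_f_at read 1311, 1465, 1283, 1673 and 1478, a difference of -0.80 ± 0.31 (adjusted p = 0.12). The highest value of this group was 1.30 times the lowest for H2-D1 97541_f_at and 1.14 times for 97540_f_at, against 2.50 and 1.90 times in the old controls, while for B2m it was 1.58 times against 1.11 times. With only the mixed group and the old controls in the fit, 3 members were called, where 6.71% of all tested probe sets were: B2m at -0.74 ± 0.11 (adjusted p = 0.0028), H2-D1 97541_f_at at -0.80 ± 0.21 (adjusted p = 0.040) and Cd74 at -1.23 ± 0.33 (adjusted p = 0.040).

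No class II chain was called with the mixture, and H2-Aa had the widest range of the 15 probe sets in this group. H2-Aa read 332, 3956, 228, 1393 and 2055, a 17.37-fold range, and differed from old controls by -1.26 ± 0.66 (SE; limma adjusted p = 0.26). H2-Ab1 read 846, 1646, 524, 950.4 and 1163, a difference of -0.71 ± 0.50 (adjusted p = 0.42). H2-Eb1 read 2518, 5030.6, 2150.1, 3714 and 3355, a difference of -0.15 ± 0.26. In all 3 chains and in Cd74 the mixed group's animal 2 was the highest and animal 3 the lowest. The macrophage and myeloid marker sums of those animals were 42092 and 24000, the highest and the lowest of the group.

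Psmb8 read 1879.8, 2098, 1683, 1807 and 2056, a difference of -0.48 ± 0.27 (SE; limma adjusted p = 0.31), and Psmb9 1033, 422.5, 927, 1010.6 and 1197, a difference of -0.32 ± 0.38. Of the listed pathway genes, Pdia3 rose by 1.37 ± 0.36 (limma adjusted p = 0.025), Lgmn fell by 0.66 ± 0.13 (adjusted p = 0.0036) and H2-Ke6 fell by 0.51 ± 0.13 (adjusted p = 0.021). H2-Ke6 lies among the H2 genes and is a steroid dehydrogenase, not a class I chain. Of 14 regulators and 3 constitutive subunits 0 were called, where 6.43% of all tested probe sets were called. Of 11 myeloid markers 2 fell, C1qb by 0.99 ± 0.22 (adjusted p = 0.0092) and the protease Ctsc by 0.93 ± 0.23 (adjusted p = 0.019). Of 10 endothelial markers 3 fell, Cldn5 by 0.94 ± 0.23 (adjusted p = 0.019), Tie1 by 0.57 ± 0.17 (adjusted p = 0.043) and Pecam1 by 0.48 ± 0.14 (adjusted p = 0.045), and of 11 fibroblast markers 4 fell and 1 rose. The part of these markers in the member values was not tested. The hybridization controls differed from those of the old controls by 0.284 on the log2 scale and 18S by 0.52 (exact permutation p = 0.16 and 0.26).

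**Figure D4:**
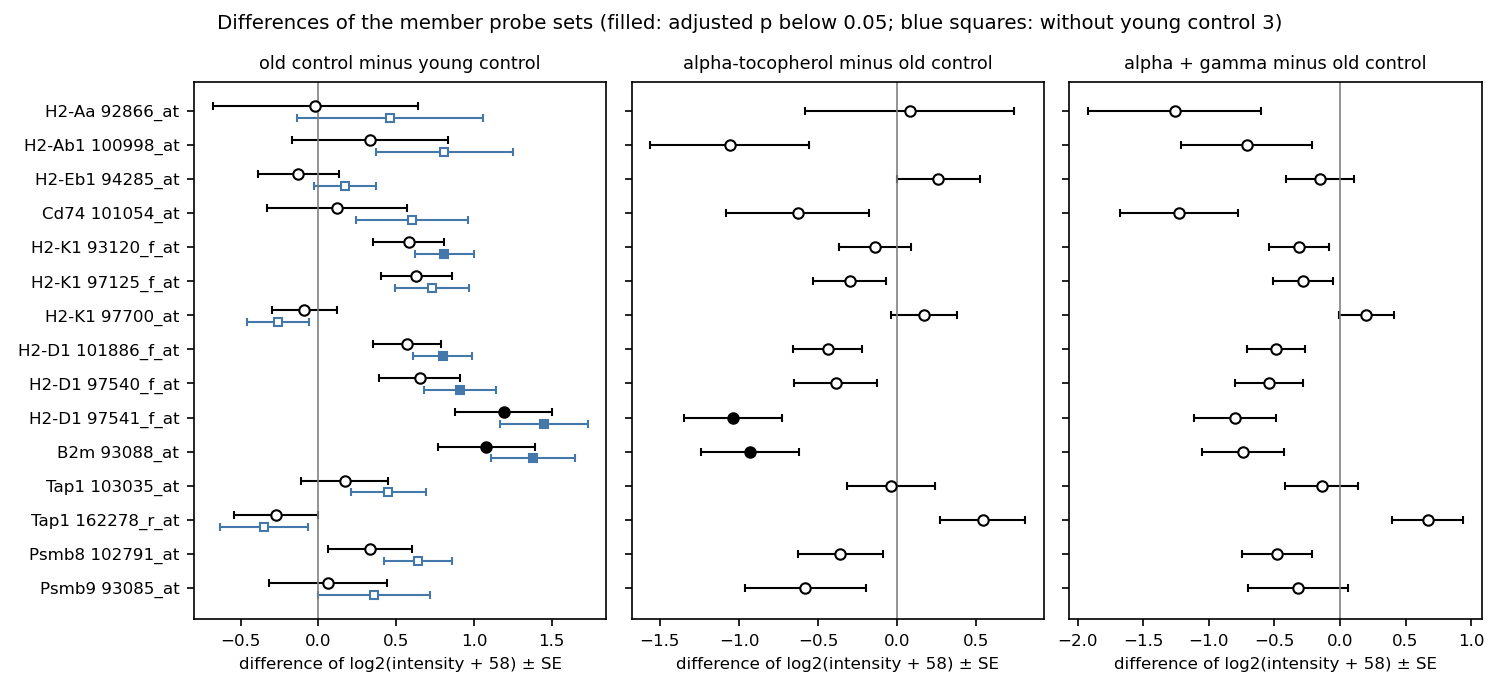
Difference of log2(intensity + 58) with its SE for the 15 probe sets: old minus young controls, alpha-tocopherol minus old controls and mixed tocopherols minus old controls; filled circles have a limma adjusted p below 0.05, and blue squares give the age comparison without young control 3. With age 2 circles and 5 squares are filled, with alpha-tocopherol 2, and with the mixture 0.

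The mixture was also set against alpha-tocopherol alone. The groups differ in the alpha-tocopherol dose and in the gamma-tocopherol together, so that these cannot be told apart. Of the 15 members 0 were called by limma and 0 had an unadjusted p under 0.05, where 0.564% of all tested probe sets were called and 1183 of the 7453 had an unadjusted p under 0.05. B2m differed by 0.19, with a 95% interval of -0.44 to 0.82, and H2-D1 97541_f_at by 0.25 (-0.39 to 0.88). Cd74 differed by -0.60 (-1.54 to 0.35) and H2-Aa by -1.34 (-2.72 to 0.03). All 4 intervals hold 0 and reach to differences of either sign. Psmb5, the constitutive counterpart of Psmb8, was 0.50 ± 0.09 higher with the mixture (SE; limma adjusted p = 0.031), the only gene called among the listed pathway genes. The hybridization controls differed by -0.568 and 18S by -1.136 between these groups, and an exact permutation gave p = 0.0079 for each.

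In order of their means, B2m went from 14.51 ± 0.06 (SD) in old controls to 13.77 ± 0.24 with the mixture, 13.58 ± 0.83 with alpha-tocopherol and 13.43 ± 0.70 in young controls. The young mean was 13.13 ± 0.26 without young control 3. H2-D1 97541_f_at had the same order, at 11.34 ± 0.54, 10.54 ± 0.15, 10.30 ± 0.68 and 10.16 ± 0.64, with the young mean at 9.90 ± 0.30 without that animal. For both, alpha-tocopherol and the mixture differed by less than the SD of the alpha-tocopherol group. Cd74 ran from 13.08 ± 0.47 in old controls over 12.96 ± 1.13 in young controls and 12.45 ± 0.71 with alpha-tocopherol to 11.85 ± 0.81 with the mixture, and the young mean was 12.48 ± 0.39 without young control 3.

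Within groups, animals high in one member tended to be high in the others. Setting aside H2-K1 97700_at and Tap1 162278_r_at, a choice made after their values were seen, the other 13 probe sets form 78 pairs, and the Pearson correlation of deviations from group means over the 20 arrays was 0.23 to 0.97 with a median of 0.80. Without young control 3 it was -0.21 to 0.96 with a median of 0.70. The points share array and RNA sample, and probes of the class I heavy chains share sequence. The pairs of H2-K1 97700_at with those 13 ran from -0.34 to 0.20 over 20 arrays and from 0.10 to 0.46 without young control 3, and those of Tap1 162278_r_at from -0.30 to -0.07 and from -0.20 to 0.10.

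**Figure D5:**
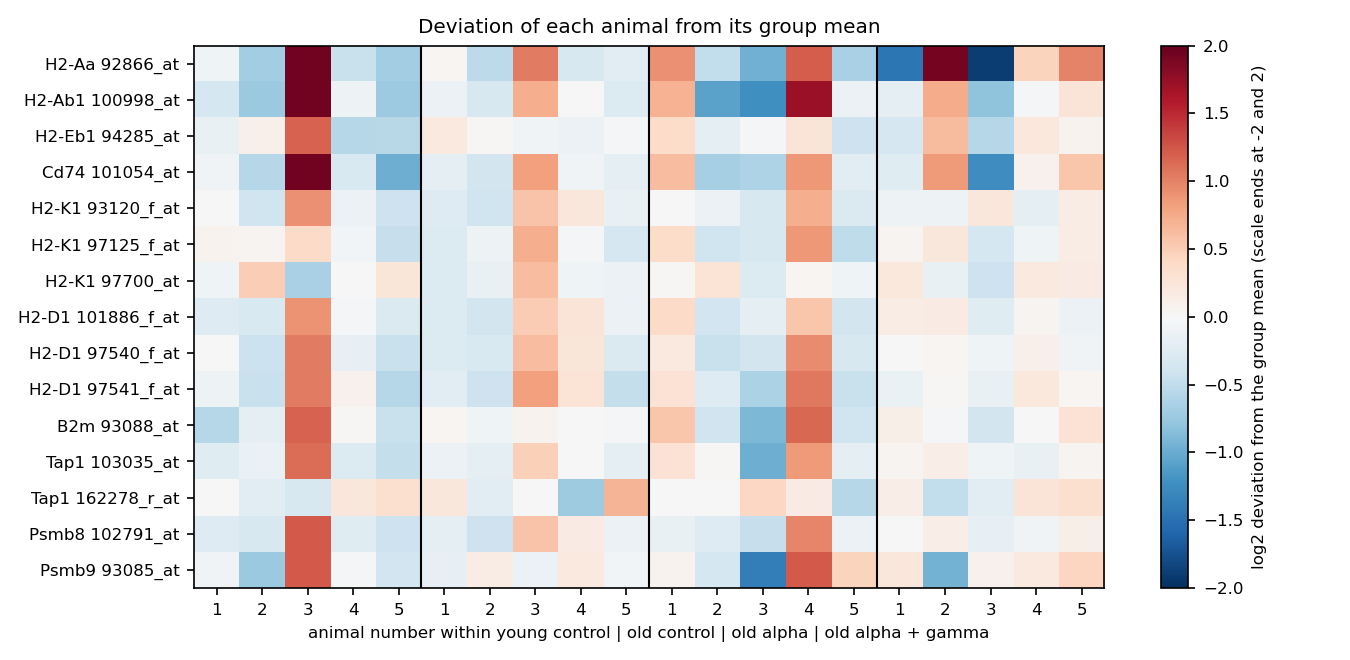
Deviation of log2(intensity + 58) from the group mean for each of the 15 probe sets and each animal; red is above and blue below the mean of the animal's own group, and colours end at -2 and 2. Young control 3, old control 3 and alpha-tocopherol animal 4 are red in most probe sets (highest of their group in 13, 12 and 12 of 15), while in H2-K1 97700_at young control 3 is the lowest of its group.

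The probe sets of 1 gene did not always go the same way. H2-K1 97700_at, which lacks the family suffix, read 425.3 in young control 3, its lowest value of the 20 arrays, where H2-K1 93120_f_at read 28317. It differed by -0.09 ± 0.21 with age (-0.26 ± 0.20 without young control 3), 0.17 ± 0.21 with alpha-tocopherol and 0.20 ± 0.21 with the mixture (SE). Tap1 162278_r_at, whose suffix marks a probe set made with fewer design rules, differed by -0.27 ± 0.27 (-0.35 ± 0.28 without that animal), 0.54 ± 0.27 and 0.67 ± 0.27, in each case opposite in sign to the brighter Tap1 probe set. Which of the probe sets follows the transcript was not tested.

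Over the 20 arrays, the 5 of 5653 other genes with the highest Pearson correlation to Cd74, in deviations from group means, were Ctss (0.903), Cd52 (0.877), Vamp2 (0.863), H2-DMa (0.827) and Actg1 (0.818). Without young control 3 the same genes gave 0.824, 0.776, 0.828, 0.677 and 0.651. For B2m they were Xrcc6 (0.875), Ctss (0.869), Irf8 (0.820), Stx6 (0.782) and Mpeg1 (0.774), and 0.801, 0.787, 0.739, 0.698 and 0.634 without that animal. Ctss and H2-DMa act in class II loading, Cd52 is a leukocyte surface protein, and Irf8 and Mpeg1 are known from myeloid cells.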

How the data were processed

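The authors deposited a linear intensity per probe set and array (12488 probe sets, 20 arrays, Affymetrix murine array). Which software made it is not given in the sources used. Per the labels' protocols, polyadenylated RNA of frozen hearts was turned into biotin-labelled cRNA, with 5 separate animals per group.

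Values were taken as log2(intensity + 58), a pseudocount close to the 10th percentile of the values. It understates differences of dim probe sets. No scaling was added to the deposited one; arrays shared a trimmed mean of 1501 with 2% left out at each end. Without 66 control probe sets and without the 40% of the others with the lowest means, 7453 probe sets were tested. Of 12422 probe sets without controls, 10833 had 1 gene symbol, 396 several and 1193 none; 3 with several symbols that include a member were not used. limma 3.58.1 (R 4.3.3; lmFit, then a robust eBayes with a variance trend) was fitted to 4 group means with 16 residual degrees of freedom, two-sided, with Benjamini-Hochberg adjustment over the 7453, and an adjusted p below 0.05 was called. The calculation was tested on simulated data. Array measures were compared by exact permutation of 5 against 5 arrays. The number of arrays limits the precision.

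All probe sets of all members are named, with every called gene of the pathway lists, values of the marker lists where they bear on a member, and the 5 genes most correlated with Cd74 and with B2m, each gene by its brightest tested probe set. Members and lists were chosen with earlier results of these data known, and list counts are not independent evidence. Alternatives were 2 other pseudocounts (16 and 200), 2 other filters, 2 scalings, array weights, no variance trend, the compared groups alone, sample number as a block, 2 covariates, sets of animals left out and each animal left out in turn. Equal sample numbers did not pair animals: over 30 same-numbered pairs the correlation of deviations was -0.084 to 0.101.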

Additional observations from a re-analysis of the deposited data

Results flagged for a closer look

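In each of the 60 combinations of 15 probe sets and 4 groups, the highest or lowest animal was set against the others by the share of the group's range that lies between it and its nearest neighbour, and 10 combinations exceeded the 95% critical value of 0.71 for 5 animals. Chance gives about 1 in 20 for a single combination. The probe sets share animals and go together, so the 60 are not independent and this rate cannot measure an excess. Young control 3 was the high animal in 5 of them, at a share of 0.77 for H2-Aa, 0.76 for H2-Ab1, 0.79 for H2-D1 101886_f_at, 0.78 for Tap1 103035_at and 0.90 for Psmb8. Its T cell marker sum was 46758 against at most 7592 elsewhere.

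Old control 3 was the high animal in 3: Cd74 at 0.75, H2-K1 97125_f_at at 0.71 and H2-K1 97700_at at 0.78. Alpha-tocopherol animal 4 was high for Psmb8 at 0.76, and animal 2 of the mixed group was low for Psmb9 at 0.75, with an intensity of 422.5 where the others read 927 to 1197. The causes were not tested.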

How the results depend on the processing

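Of 2044 member values under the alternatives, 38 lost a call, 10 gained one and the other 1996 kept their side of the threshold. The sign differed in 67 values, 0 of them called in either setting; in 56 of these the difference moved by less than its SE, and the other 11 follow below. The number of members called with age, 2, was 1 without the filter on dim probe sets, 1 without the variance trend, 1 with the hybridization covariate, 1 with 18S, 4 without young control 3 and old control 3, 0 without old controls 1 and 4, and 0 to 5 with 1 animal left out. With sample number as a replicate block it was 1, and the block changed the count of called members in no other comparison by over 1.5 times. For alpha-tocopherol, 2 became 1 without the variance trend, 0 with either covariate, 0 without old controls 1 and 4, and 0 to 3 with 1 animal left out; for the mixture, 0 became 3 with the compared groups alone and 0 to 1 with 1 animal left out. The mixture against alpha-tocopherol stayed at 0 with any 1 animal left out.

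Among sign changes by more than the SE, H2-Eb1 with age ran from -0.27 to 0.17 with 1 animal left out, the latter without young control 3, and was 0.18 without young control 3 and old control 3. With the hybridization covariate, the alpha-tocopherol differences were 0.02 for Cd74, 0.11 for H2-K1 93120_f_at, 0.30 for Tap1 103035_at, 0.01 for Psmb8 and 0.48 for Psmb9, and Psmb9 was -0.45 for the mixture against alpha-tocopherol. With the 18S covariate H2-Aa was -0.79 under alpha-tocopherol. With both Tap1 probe sets averaged, Tap1 was 0.25 under alpha-tocopherol and 0.27 under the mixture. The causes were not tested.

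Over all tested probe sets, the count called with age, 368, ran from 150 without old controls 1 and 4 to 731 with array weights, that for alpha-tocopherol, 1619, from 142 with 18S to 1804, that for the mixture, 479, from 162 to 858, and that for the mixture against alpha-tocopherol, 42, from 0 to 79.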

Other observations

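Without young control 3, the genes most like Cd74 in deviations from group means over 19 arrays were the chemokine Ccl8 (Pearson r of 0.864), Vamp2 (0.828), Ctss (0.824), Itpkb (0.822) and H2-D4 (0.799), and those most like B2m were Fkbp9 (0.806), Xrcc6 (0.801), Ctss (0.787), the interferon-induced Gbp3 (0.780) and the lectin Cd302 (0.778). Ctss was in both lists with and without that animal. Fkbp9 gave 0.281 over all 20 arrays, so that its place rests on leaving 1 array out.

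Markers of antigen-presenting cell types did not move as 1 group under alpha-tocopherol, where 21.7% of all tested probe sets were called. Called were 2 of 4 tested dendritic cell, 1 of 5 B cell and 6 of 11 macrophage and myeloid markers. Signs also differed within the B cell and the myeloid lists. Cd79a and Blnk differed by -0.37 and -0.22 and Cd14 and Laptm5 by 0.13 and 0.12, none of them called. The dendritic cell markers Itgax and Fscn1 rose by 0.55 ± 0.19 and 0.63 ± 0.20 (SE, n = 5 per group; limma adjusted p = 0.046 and 0.025), and the B cell marker Ms4a1 rose by 0.79 ± 0.21 (adjusted p = 0.0090), while the macrophage markers C1qa and Mrc1 fell by 0.66 ± 0.20 and 0.86 ± 0.29 (adjusted p = 0.021 and 0.038).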
